A study of Mus musculus with 4 samples.

Results

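The genes described here are 9 transcripts that mark B cells and antigen-presenting cells in the mouse spleen, read in a list of N6-methyladenosine (m6A) peaks made from splenic natural killer (NK) cells. They were chosen by name as cell markers, with their fold enrichments and p-values in this list already known, so every value below is a description and none is tested. The genes were the MHC class II genes Cd74, H2-Aa, H2-Ab1 and H2-Eb1, the B cell receptor genes Cd79a, Cd79b and Ighm, the B cell surface gene Ms4a1, and the lysozyme gene Lyz2. Matching by Ensembl gene identifier found 14 of the 20727 distinct peaks in the list, in 8 of the 9 genes; Ms4a1 had no peak. The study used methylated RNA immunoprecipitation sequencing (MeRIP-seq), in which poly(A) RNA is fragmented, fragments bound by an antibody against m6A are sequenced, and their reads are set against those of unselected input RNA. There were 4 libraries, 2 m6A immunoprecipitates and 2 inputs, all from the spleens of C57BL/6 mice. According to the study's methods, the NK cells had first been amplified in the animals by an injected pLIVE plasmid encoding IL-15 and were then isolated on a cell sorter. The methods give 1 age range of young adult mice for the whole study, and the number of mice per library is not given in the sources used here. The list gave 1 fold enrichment and 1 p-value per peak for all libraries together and 0 columns with a value per sample, so no error between replicates and no library depth could be given.

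MHC class II molecules are pairs of an alpha and a beta chain that display peptides from the endosome to CD4 T cells. The invariant chain, encoded by Cd74, binds the pair in the endoplasmic reticulum, blocks its groove and guides it to the endosome. Dendritic cells, macrophages and B cells are the main cells of the mouse spleen that carry class II, and resting mouse NK cells are not among them. The B cell receptor is a membrane immunoglobulin, in naive B cells with heavy chains that include mu from Ighm, held with the signalling chains CD79A and CD79B. Ms4a1 encodes CD20, a membrane-spanning protein of B cells, and Lyz2 encodes lysozyme M of macrophages, monocytes and neutrophils. The m6A mark is written co-transcriptionally by the METTL3 and METTL14 complex, mostly in the sequence DRACH (A, G or T, then A or G, then AC, then A, C or T) and mostly in long exons, around stop codons and in 3′ UTRs.

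The following stretches of transcript show the DRACH motif that lay nearest to the middle of the most significant peak in each of 7 of the genes with a peak, and in the weaker peak of Ighm as well, since the 2 Ighm peaks lay on different ends of the heavy chain RNA. The middle was that of the stretch on the longest coding transcript, which for the weaker Ighm peak is a short piece that the membrane and secreted forms share. They were read from GENCODE M21 transcripts (GRCm38) on the strand of the gene, 5′ to 3′, and capitals mark the motif. The assay resolves a fragment and not a base, so none of these adenosines is called the modified one.
H2-Aa, 3′ UTR: tgttttctGGACCaattcatg
H2-Ab1, coding sequence: gagtactgGAACAgccagccg
H2-Eb1, coding sequence: agccaacaGGACTcctgagct
Cd79a, 3′ UTR: tctcatgtAGACTgctcctca
Cd79b, 3′ UTR: ctgcaaatGGACTcagaacac
Ighm, membrane form, 3′ UTR: tgactagtAAACTtattctta
Ighm, both forms, coding sequence: aggaccgtGGACAagtccact
Lyz2, 3′ UTR: cccagttaGAACAgcctctgt
In GRCm38 these stretches stand at chr17:34282950-34282970 (minus strand) for H2-Aa, chr17:34264922-34264942 (plus) for H2-Ab1, chr17:34315571-34315885 (plus, across an intron) for H2-Eb1, chr7:24901880-24901900 (plus) for Cd79a, chr11:106311489-106311509 (minus) for Cd79b, chr12:113418725-113418745 and chr12:113420930-113420950 (both minus) for Ighm, and chr10:117277691-117277711 (minus) for Lyz2. The central motif was GGAC followed by A, C or T in H2-Aa, H2-Eb1, Cd79b and the shared stretch of Ighm, and another DRACH form in the other 4 stretches.

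In these NK cell libraries, the genes of class II antigen presentation carried some of the most significant peaks of the whole list, at low fold enrichment, whereas the genes of the B cell receptor carried peaks of far lower significance. The significance is the log10 of the unadjusted p-value from peak calling, so more negative means more significant. A log10 p of -100 or lower was reached by 2.55% of all peaks and by 6 of the 14 peaks of these genes, which lay in Cd74, H2-Aa, H2-Ab1, H2-Eb1 and Lyz2. A p-value under 0.001 was reached by 61.5% of all peaks and by 13 of the 14, with the first Ighm peak as the exception. Their median fold enrichment was 1.6 (interquartile range 1.26 to 1.86), against 2.66 (1.73 to 9.48) over all peaks, and 11 of the 14 lay under a fold of 2, compared with 36.1% of all peaks and 27.2% of the peaks that reached a log10 p of -100. A fold enrichment of at least 5, called strong here, was found in 34.6% of all peaks and in 1 of the 14, that of Cd79a. Counted by gene, a strong peak was found in 49.6% of all genes that had any peak, against 1 of the 8 here. A peak of any strength was present in 46.3% of protein-coding and immunoglobulin or T cell receptor constant-region genes and in 8 of these 9. In RNA from many cells together, fewer cells of a type and less RNA per cell cannot be told apart, and a peak is not a level of expression: it needs both reads and enrichment.

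**Figure D1:**
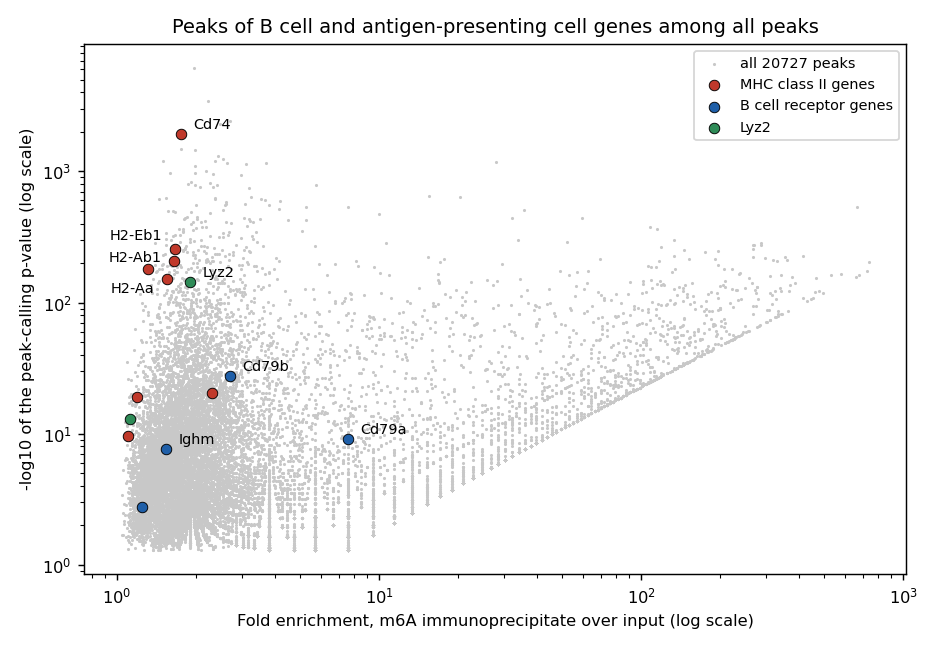
Each point is 1 peak of the list, placed by its fold enrichment (horizontal, log scale) and by the negative log10 of its peak-calling p-value (vertical, log scale); grey points are all 20727 peaks, and coloured points are the 14 peaks of class II genes (red), B cell receptor genes (blue) and Lyz2 (green), with the name at the most significant peak of each gene. Cd74 (log10 p -1930) stands near the top at a fold of 1.75, the best peaks of the other class II genes and Lyz2 lie between a log10 p of -258 and -143, and Cd79a alone lies right of a fold of 5.

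Cd74 (ENSMUSG00000024610, chromosome 18, 60803848 to 60812652, plus strand) had the most significant peak of the 9 genes. Its single peak (60812286 to 60812646) combined a fold of 1.75 with a log10 p of -1930, which ranked 5 of 20727 by significance and 15280 by fold. All 361 nt of the peak lay in exon 9, the last exon, from position 1050 to the final base of the 1410 nt transcript, so the peak covered the distal part of the 3′ UTR and 25.6% of the transcript. It held 11 DRACH sites, 4 of them GGAC, at 30.5 DRACH sites per kb. The peak was present in full in 2 of the 3 coding isoforms and by 304 nt in the other. Among the genes of all other lists used here, the most alike in fold and log10 p of the most significant peak were Ccl5, a chemokine gene highly transcribed in NK cells (1.76 and -1480), the beta-globin gene Hbb-bs (2.69 and -2440) and Actb (1.5 and -1210). Likeness was the distance in log2 of both values, which was 0.38, 0.71 and 0.71 in that order. The 4 genes thus include 1 of NK cells, 1 of red cells and 1 used in every cell beside Cd74.

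The 3 class II chain genes lie side by side on chromosome 17 and carried 7 peaks, and each of them had at least 1 with a log10 p of -152 or lower. H2-Aa (ENSMUSG00000036594, 34282744 to 34287823, minus strand) encodes the alpha chain of I-A, the class II molecule of C57BL/6 mice. Its more significant peak (34282744 to 34283291) had a fold of 1.55 and a log10 p of -152, spanned 417 nt of exons 4 and 5 across the stop codon and ran to the last base of the transcript. The other H2-Aa peak (34284506 to 34286642) had a higher fold, 2.31, and a weaker log10 p of -20.6. Only 31 nt of it fell on the coding transcript, whereas all 2137 nt lay inside an annotated retained-intron isoform of the gene.

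H2-Ab1 (ENSMUSG00000073421, 34257689 to 34269419, plus strand), the beta chain of I-A, had 3 peaks that together covered 89.3% of its 1212 nt transcript. From 5′ to 3′ they had fold enrichments of 1.1, 1.65 and 1.31 and log10 p-values of -9.60, -209 and -181. On the coding transcript the middle one (34264832 to 34267286) lay in exon 2, within the coding sequence, and the last (34267376 to 34269418) took 701 nt of exons 3 to 6. The middle peak also covered 556 nt of a retained-intron isoform, and 202 nt of it lay on the coding transcript. Thus both the highest fold and the best significance of H2-Ab1 belonged to an internal peak, whereas the most significant peak of Cd74, H2-Aa, Cd79a, Cd79b and Lyz2 ran to the transcript end. H2-Eb1 (ENSMUSG00000060586, 34305867 to 34316674, plus strand) encodes the beta chain of I-E, whose alpha partner C57BL/6 mice do not make. Its second peak (34314261 to 34316199) had a fold of 1.66 and a log10 p of -258, over 652 nt of exons 3 to 6, and its centre lay 12 nt before the stop codon. Its first peak (34305877 to 34309597), over the 5′ UTR and the start of the coding sequence, had a fold of 1.19 and a log10 p of -19.2. On the longest H2-Eb1 transcript the second peak stopped 475 nt short of the end, but it reached the last base of the shorter coding isoform of 1171 nt.

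The B cell receptor genes had peaks as well, each of a different kind. Cd79a (ENSMUSG00000003379, chromosome 7, 24897381 to 24902197, plus strand), the alpha signalling chain, had 1 peak (24901603 to 24902197) with the highest fold of the 9 genes, 7.59, at a modest log10 p of -9.11, ranked 5766. It filled 595 nt of exon 5, 40.8% of the transcript, to the last base of the 3′ UTR. Cd79b (ENSMUSG00000040592, chromosome 11, 106311341 to 106314762, minus strand), the beta signalling chain, had 1 peak (106311341 to 106311669) with a fold of 2.69 and a log10 p of -27.6. That peak took 329 nt at the 3′ end of the last exon, with 11 DRACH sites of which 4 were GGAC, the same numbers as in the Cd74 peak. Both signalling chains therefore had their only peak in the 3′ UTR, running to its last base. The peak covered 595 of the 653 nt of that UTR in Cd79a and 329 of 466 nt in Cd79b.

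Ighm (ENSMUSG00000076617, chromosome 12, 113418558 to 113422730, minus strand) makes the membrane and the secreted mu chain from one gene by the choice of its last exons and poly(A) site. The first of its peaks (113420857 to 113420946) was the least significant of the 14, with a log10 p of -2.76 and a fold of 1.24. All 90 nt of it lay on the secreted isoform, from 1288 to 1377 across its stop codon at 1365, and 18 nt were shared with the membrane isoform. The other peak (113418618 to 113418797) had a fold of 1.54 and a log10 p of -7.63, and its 180 nt lay in the last exon of the membrane isoform, which is absent from the secreted one. Each end of the mu chain RNA thus had a peak of its own. The immunoglobulin constant genes resemble one another, and how reads shared between such copies were counted is not given in the sources used here.

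Ms4a1 (ENSMUSG00000024673, chromosome 19, 11249675 to 11266241, minus strand) had no peak, although its 3075 nt transcript is the longest of the 9 and holds 52 DRACH sites, as many as that of Ighm, the most among these genes. No peak of another gene identifier overlapped it either. The absence says only that no peak was called, not that the RNA was absent or unmethylated. Lyz2 (ENSMUSG00000069516, chromosome 10, 117277331 to 117282321, minus strand) had 2 peaks over 88.7% of its 1316 nt transcript. The peak in the 3′ UTR (117277331 to 117278108) had a fold of 1.9 and a log10 p of -143 over 778 nt, and the one over the coding sequence (117278168 to 117282231) had 1.12 and -13.0. Lyz1, a close copy of Lyz2 in the same chromosomal cluster and named for that, had 1 peak with a fold of 3.03 and a log10 p of -1.38. That p-value was near the weakest of the list, and reads shared between the copies may be split between them.

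**Figure D2:**
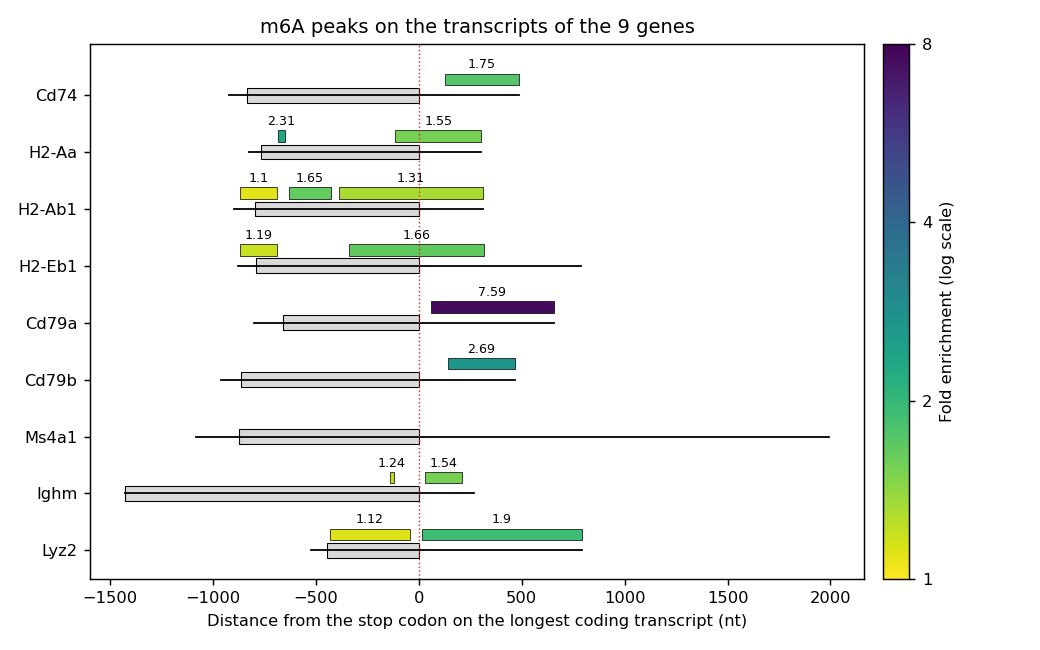
Each row is the longest coding transcript of 1 gene, drawn in nt from the stop codon (dotted line), with the coding sequence as a grey box, the UTRs as lines and the exonic part of each peak as a coloured bar above it; the colour and the number give the fold enrichment, on a log colour scale. Bars of Cd74, Cd79a and Cd79b lie wholly in the 3′ UTR at the transcript end, those of H2-Ab1 and Lyz2 cover most of the transcript, the first H2-Aa bar is the 31 nt on the coding transcript, and Ms4a1 has none.

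On the transcripts, 6 of the 14 peaks (42.9%) were centred in the 3′ UTR, 8 (57.1%) in the coding sequence and 0 in the 5′ UTR. Among the 15781 peaks of all genes with a place on a coding transcript, 57.5% were centred in the 3′ UTR and 32.6% in the coding sequence. When only the most significant peak of each gene was taken, 6 of 8 were in the 3′ UTR, compared with 62.0% of 9279 genes. Centres within 200 nt of the stop codon were found for 5 of the 14 peaks (35.7%) and for 21.8% of all placed peaks, and they were the last peaks of H2-Aa, H2-Ab1 and H2-Eb1 and both Ighm peaks. The most significant peak ran to within 10 nt of the transcript end in 5 of 8 genes, Cd74, H2-Aa, Cd79a, Cd79b and Lyz2, against 31.8% of genes in general and 48.8% of those whose best peak reached a log10 p of -100. Among the 5 genes with several peaks, the last peak had a higher fold than the first in 4, the exception being H2-Aa, whereas this was so in 49.4% of 3989 genes. Peaks covered a median of 40.3% of the transcript in the 8 genes, near the 39.1% of the 381 genes with a peak at a log10 p of -100 or lower and above the 12.0% of all 9641 genes with a placed peak. With so few genes these shares are descriptions only.

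DRACH sites were present in 13 of the 14 peaks, the exception being the 31 nt of H2-Aa, and in 89.9% of all placed peaks. Their median density was 23.9 per kb in the 14 peaks (interquartile range 21.6 to 29.4) and 18.7 per kb (11.5 to 25.2) over all placed peaks. Restricted to peaks with at least 100 nt on the transcript, the medians were 23.9 for 12 peaks and 19.4 for 11960. The densest of the long peaks was that on the membrane end of Ighm, with 38.9 per kb, followed by Cd79b with 33.4 and Cd74 with 30.5. The Cd79a peak had 18.5 per kb, the lowest of these long peaks, and the strongest fold. The GGAC form was found in 12 of the 14 peaks (85.7%) and in 54.5% of all placed peaks. Only the strand of the transcript was searched, GGAC sites are a subset of DRACH sites when A, C or T follows, and longer peaks have more chance to hold either. A match is a description of the letters in the peak.

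To set these genes beside the rest of their pathways and beside other cells of the spleen, the most significant peak of each gene was read in 12 gene lists, chosen with earlier results of these data known. Of 21 further genes of the class II pathway, 17 (81.0%) had a peak, against 46.3% of all protein-coding and constant-region genes. A strong peak was found in 5 of the 17, against 49.6% of all genes that had any. A log10 p of -100 was reached by 2 of the 17, against 363 of 9279 genes with a best peak on a coding transcript. Ctsb, an endosomal cathepsin, had a fold of 1.98 and a log10 p of -969, Ctss, the cathepsin that trims the invariant chain, 1.55 and -154, and Ifi30, the lysosomal thiol reductase, 2.14 and -80.2. The highest fold was 32.7 in Lgmn, a lysosomal protease, at a log10 p of -59.2 and with 0 nt on its coding transcript. Ciita, the master regulator of class II transcription, had no peak, nor did H2-Ob, Nfyb and Rfxap (named after their values were seen). The cathepsins and the NF-Y and RFX factors are made in many cell types. The median log10 p over the 17 genes was -18, against -148 over the 8 genes with a peak among the 9.

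B cell genes outside the 9 had peaks of lower significance and higher fold. Their strong folds rested on very few reads, as given with the implied reads below. Of 27 genes of the B cell receptor and of B cell identity, 12 (44.4%) had a peak, near the 46.3% of all protein-coding and constant-region genes. A strong one was present in 9 of the 12, against 49.6% of all genes that had any peak. A log10 p of -100 was reached by 0 of the 12, against 363 of 9279 genes with a best peak on a coding transcript. The delta heavy chain gene Ighd and the light chain constant genes Igkc, Iglc1 and Iglc2 had none, whereas the light chain gene Iglc3 had a fold of 9.48 at a log10 p of -1.69 (all 5 named after their values were seen). The B cell transcription factor genes Ebf1 and Pax5 had fold enrichments of 125 and 75.9 at log10 p-values of -28.9 and -17.1, and the scaffold gene Bank1 had 1.75 and -16.9. Bank1 counts as strong through another peak, with a fold of 11.4 at a log10 p of -2.09. The median fold of the 12 was 7.70 and the median log10 p was -7.21, so this list resembled Cd79a more than Cd74.

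Macrophage and monocyte genes, the company of Lyz2, had a peak in 17 of 18, with Ms4a6c as the exception (named after its value was seen), and 7 reached a log10 p of -100. A peak was present in 46.3% of all protein-coding and constant-region genes, and 2.55% of all peaks reached a log10 p of -100. Counted by gene, that level was reached by 363 of 9279 genes with a best peak on a coding transcript. Apoe, the lipid carrier, had a fold of 3.79 and a log10 p of -557, the complement gene C1qc 1.78 and -363, and Csf1r, the receptor for macrophage colony-stimulating factor, 1.64 and -322. The highest fold of the list was 6.83, in another peak of C1qc at a log10 p of -4.67. NK cell genes, those of the labelled cell type, had 0 strong peaks, against a strong peak in 49.6% of all genes that had any. A peak was present in 20 of 20 of these NK cell genes, and 10 of them reached a log10 p of -100. The most significant were Ccl5 as given above, the granzyme gene Gzma (1.53 and -624) and Nkg7 of the cytotoxic granule (3.28 and -322). Ncr1, the activating receptor that defines the lineage, had 1.36 and -25.0. The highest fold among the NK cell genes was 4.57, in a less significant peak of Cd160 at a log10 p of -13.7. The most significant Cd160 peak had 1.55 and -41.9. The median fold of the most significant peaks was 1.77 for NK cell genes, 1.95 for macrophage and monocyte genes and 1.71 for the 8 genes described here. All 14 genes of MHC class I presentation and all 12 housekeeping genes had a peak too, so a peak in every NK cell gene does not check the cell type. What markers of other cell types contribute to these libraries was not tested, since the list has no expression value.

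**Figure D3:**
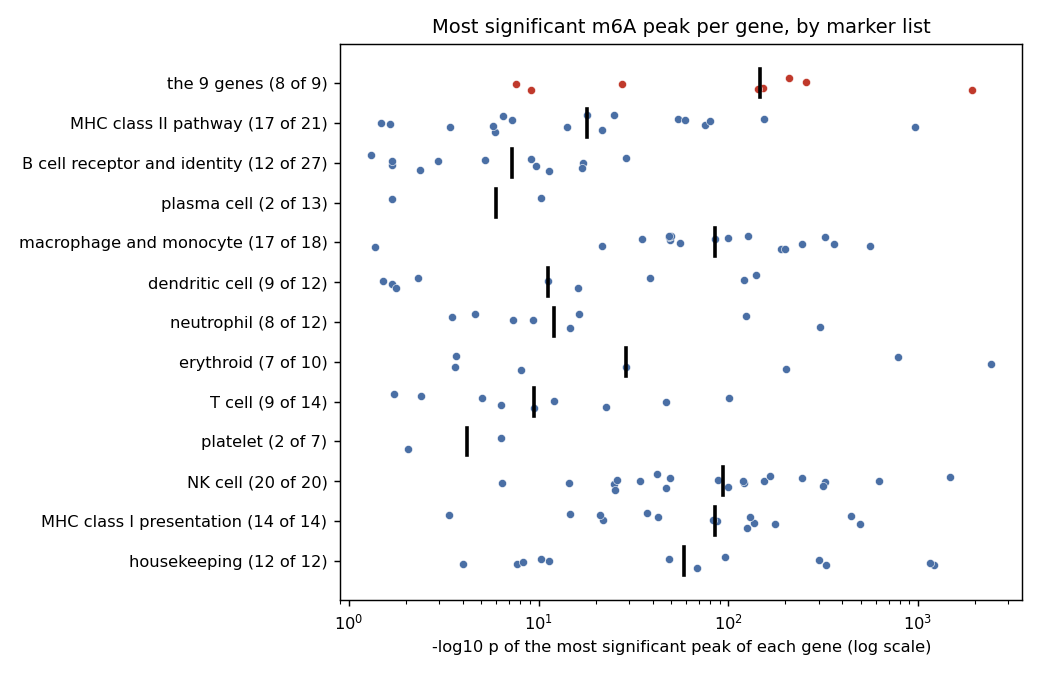
Each point is the most significant peak of 1 gene, placed by the negative log10 of its peak-calling p-value (log scale); rows are gene lists, with the genes that have a peak of all listed in brackets, black bars are medians, and vertical scatter within a row carries no meaning. The 9 genes (red) split into 3 B cell receptor genes with a log10 p from -27.6 to -7.63 and 5 class II and Lyz2 points at -143 or lower; the median log10 p was -148 for these genes, -94.3 for NK cell, -85 for macrophage and monocyte, -18 for class II pathway and -7.21 for B cell genes.

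The fold and the p-value of a peak together imply how many reads stood behind it, since a small enrichment can be highly significant only with many reads. Fold enrichments from 5 to 30 were whole multiples of 1.897, within the rounding of the list to 3 significant digits, in 78.4% of 5410 peaks. A ratio of whole reads scaled by 1 depth factor, here 1.897, gives such a multiple where the input reads divide the immunoprecipitate reads. That always holds at 1 input read, so many strong folds, also in the shares over all peaks, may rest on few input reads. With this factor, the smallest number of input reads at which a binomial test gives the listed p-value was 59681 for Cd74, 9956 for H2-Eb1, 8277 for H2-Ab1, 8109 for H2-Aa, 3178 for Lyz2, 367 for Ighm, 206 for Cd79b and 9 for Cd79a, each for the most significant peak. These are reconstructed values, not counts in the list, and they assume that 1 test on all reads of the peak gave the p-value. Per 100 nt of the coding isoform that held most of the peak they came to 16532 for Cd74, 4098 for H2-Ab1, 1945 for H2-Aa, 1278 for H2-Eb1, 408 for Lyz2, 204 for Ighm, 62.6 for Cd79b and 1.51 for Cd79a. The genes thus spread over 4 orders of magnitude, and on these most significant peaks the class II genes lay above the B cell receptor genes. For H2-Ab1 the value fell to 1117 when all annotated exons under the peak were counted, retained introns included.

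The order is rough. Peaks were compared within the 1183 genes that had exactly 2 peaks of at least 100 implied input reads. The implied reads per 100 nt of such a pair differed by a median of 2.45 times and lay within 2 times in only 42.5%. H2-Ab1, H2-Aa and H2-Eb1 lay closer to their neighbours than that median, as did Lyz2 and Ighm, and their order is not to be read. In Lyz2 itself the coding peak implied 2916 and the 3′ UTR peak 408 per 100 nt, and in H2-Eb1 the 2 peaks implied 3983 and 1278. The less significant peaks brought the groups closer, with 745 for the other peak of H2-Aa, on 31 nt of coding transcript, and 533 for the other peak of Ighm. Over all exons, that H2-Aa peak implied 10.8. The same quantity was 15573 for Ccl5, 8654 for Gzma and 2342 for Ncr1 among NK cell genes, 2191 for C1qc and 1461 for Csf1r among macrophage genes, and had medians of 320 over the 20 NK cell genes, 589 over the 17 macrophage and monocyte genes and 2.03 over the 12 B cell genes. In the B cell list, the highest fold of each of the 9 genes with a strong peak rested on 4 implied input reads or fewer. It rested on 1 for Ebf1, Pax5, Iglc3 and Bank1.

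**Figure D4:**
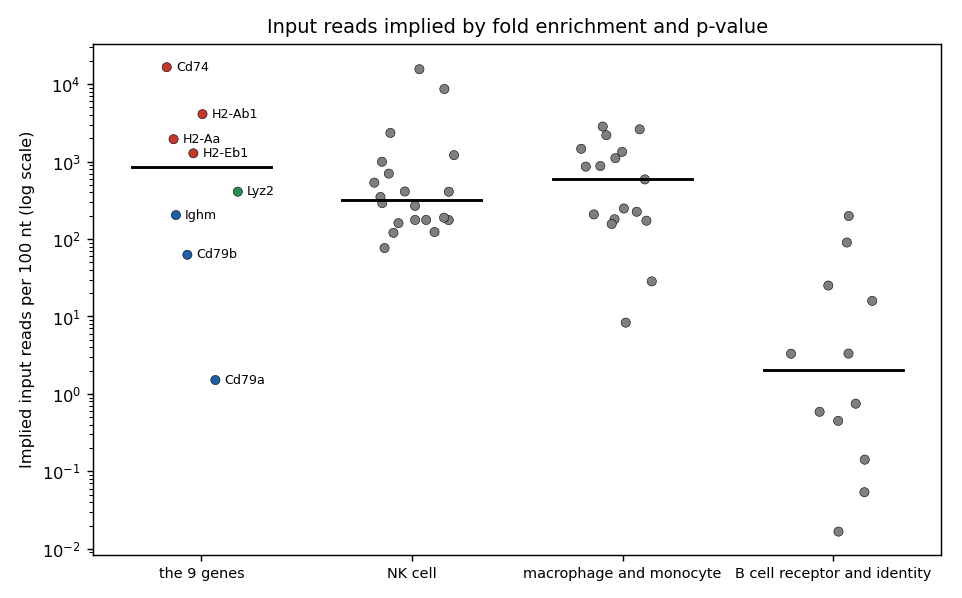
Points are genes, placed by the input reads implied per 100 nt of coding isoform for the most significant peak (log scale), in the 9 genes (8 with a peak: class II red, B cell receptor blue, Lyz2 green) and in 3 marker lists; bars are medians and horizontal scatter carries no meaning. Cd74 lies at 16532, level with the highest NK cell gene at 15573, and Cd79a at 1.51 lies among the B cell list, whose median is 2.03.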

How the data were processed

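Per the labels, 2 m6A immunoprecipitates and 2 input libraries of poly(A) RNA from splenic NK cells were sequenced. The submitters' processing notes and the study's methods together name HISAT2 for alignment to GRCm38, exomePeak for peaks and ChIPseeker for annotation. For quality control and trimming, the methods name FastQC, Trimmomatic and Cutadapt, whereas fastp is named in the processing notes and not in the methods. The deposited fold enrichment is a ratio of immunoprecipitate over input reads made by the authors, and the deposited significance is a score, the log10 of the p-value, whose weakest value was -1.30. How the replicates were combined is not given in the sources used here.

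Of 20751 rows, 24 repeats were dropped. Peaks were matched by gene identifier and placed on the longest coding transcript of GENCODE M21 by the centre of their exonic part (15781 peaks), with Python 3.11.15, pandas 2.3.3 and SciPy 1.17.1. The 9 genes and all lists were chosen with earlier results of these data known. Besides the 9, the text names from each list at most 3 genes with the best p-value and the 1 with the highest fold, fixed defining markers (Cd3e, Csf1r, Ncr1, S100a8, Hbb-bs; another is not reported here), and the 3 genes nearest to Cd74. Genes without a peak, Iglc3 and Lyz1 are named outside this rule, after their values were seen. Of 189 listed symbols 1, Ahsp, was not in the annotation. Alternatives changed the fold and significance thresholds, gene matching, transcript, centre, motif and read model. No test between groups was made.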

Additional observations from a re-analysis of the deposited data

How the results depend on the processing

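Of 58 values under alternatives for 33 results, 34 stayed within 1.5 times of the reported value or share and 24 moved further. With only peaks of fold at least 2, the genes with a peak fell from 8 to 3 (H2-Aa through its retained-intron peak, Cd79a and Cd79b) and their peaks from 14 to 3. The same threshold left 10 of 17 class II pathway genes, 11 of 17 macrophage and monocyte genes, 2 of 8 neutrophil genes, 9 of 20 NK cell genes and 5 of 14 MHC class I genes. With a fold of at least 10 for a strong peak, 0 of the 9 genes had one. Requiring most of a peak's span to lie in exons kept 9 of the 14 peaks. With the centre of the genomic span, 100% of the 6 peaks whose centre then fell in an exon were in the 3′ UTR, against 42.9% of 14. The median density was 4.62 per kb for GGAC, a narrower motif. With p under 0.001, 7 of 12 B cell, 1 of 2 plasma cell, 5 of 9 dendritic cell and 1 of 2 platelet genes were left. The fold, p and motif changes follow from fewer peaks or a narrower motif. A Poisson test lowered the implied input reads to 36351 for Cd74, 6108 for H2-Eb1, 5080 for H2-Ab1, 5025 for H2-Aa, 1912 for Lyz2, 228 for Ighm, 117 for Cd79b and 5 for Cd79a, and 0 of the 8 genes changed place in the order. Both read models start from the same fold and p of each peak, so the unchanged order is no check of it. Counting all annotated exons, an alternative chosen after seeing the data, moved the implied reads per 100 nt of H2-Ab1 from 4098 to 1117. No paired analysis was possible because the list has no value per sample, and for the same reason neither replicate could be left out. Depth is unknown, so a gene without a peak may only lack reads.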

Other observations

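Genes chosen as markers of other blood and spleen cells had peaks in the same peak list, in which 46.3% of all protein-coding and constant-region genes had one. Whether the NK cells also transcribe any of these marker genes was not tested. Of 10 erythroid genes, 7 had a peak, led by Hbb-bs (fold 2.69, log10 p -2440), Hba-a1 (1.98 and -788) and Hbb-bt (2.02 and -202), with the highest fold, 37.9, in Hba-a2; the globin copies are near-identical and their reads may be split. Of 12 neutrophil genes, 8 had a peak, among them the alarmin genes S100a8 (1.89 and -306) and S100a9 (1.55 and -124) and the lactoferrin gene Ltf (1.71 and -16.3), with the highest fold, 13.3, in the chemokine receptor gene Cxcr2. Of 12 dendritic cell genes, 9 had a peak, with Irf8 (2.43 and -140), Itgax (1.79 and -121) and Cd83 (1.92 and -38.5) the most significant and Flt3 (51.2 and -11.2) the highest fold; Itgax encodes CD11c, which mouse NK cells also carry.

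Of 14 T cell genes, 9 had a peak, and Cd4, Cd5, Cd6, Cd8a and Cd8b1 had none (named after their values were seen). Trbc1 had a fold of 1.64 and a log10 p of -101, Cd3g 3.79 and -46.8, Trbc2 2.24 and -22.6, Themis the highest fold, 55, and Cd3e 30.3 at a log10 p of -6.35. Of 13 plasma cell genes, 2 had a peak, Xbp1 (1.45 and -10.3) and Ighg2c (9.48 and -1.69), and so had 2 of 7 platelet genes, Gp1bb (2.73 and -6.35) and Pf4 (1.84 and -2.06). All 14 genes of MHC class I presentation had a peak, with H2-D1 (1.57 and -495), Pdia3 (59.6 and -443) and H2-K1 (2.07 and -176) the most significant, and so had the 12 housekeeping genes, with Actb (1.5 and -1210), Eef2 (3.71 and -1160) and Ppia (1.73 and -328) first and Gapdh the highest fold, 15.2. The folds given for Hba-a2, Flt3, Themis, Cd3e, Ighg2c and Gapdh each rested on 1 implied input read. Few reads also stood behind the highest folds of Cxcr2 (4 implied input reads), C1qc (5) and Lgmn (9).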
